A study of Mus musculus with 32 samples.

Results

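The subject is the cytochrome P450 enzymes and the enzymes of conjugation, the genes with which liver and other tissues process drugs, steroids, bile acids and reactive by-products. Members were all rows of the deposited table whose symbol belongs to a cytochrome P450 (Cyp followed by a number), a glutathione S-transferase (Gst of classes alpha, mu, pi, theta, zeta, kappa and omega), a UDP-glucuronosyltransferase (Ugt1 or Ugt2), a sulfotransferase (Sult) or an epoxide hydrolase (Ephx1 or Ephx2). The rule found 50 of 9026 named genes, on 59 of 20794 rows. They comprised 11 genes of the CYP2 family, 2 of CYP3, 6 of CYP4, 8 other cytochromes P450, 16 glutathione S-transferases, 2 glucuronosyltransferases, 3 sulfotransferases and 2 epoxide hydrolases. No CYP1 gene was among them, and Cyp1a2, Cyp2e1, Cyp4a10, Cyp7a1, Cyp8b1, Ugt1a1 and Ugt2b5 were not analysed here.

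The study compared RNA of livers and spleens from nuclear-transfer mice with pooled RNA on 2-colour arrays. The cloned mice were labelled either Dll1, a line with a change in the gene for the Notch ligand Delta-like 1, or wildtype, and each cloned mouse was hybridised against a pool of conventionally bred mice, Dll1 heterozygotes for the Dll1 clones and wildtype mice for the wildtype clones. All animals, pools included, were 129/SvJ males aged 18 to 19 weeks. Each of the 4 groups (wildtype liver, Dll1 liver, wildtype spleen, Dll1 spleen) held 4 mice with 2 arrays each, 1 for each dye orientation, which made 32 arrays. The same mice gave both organs. Whether the 4 clones of a genotype shared 1 donor cell line is not given in the sources used here. A pool is 1 sample, of 6 animals by the protocol or 4 by its listed identifiers, so its own animals' spread is not part of any test.

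Cytochromes P450 of families CYP1 to CYP4 are haem enzymes of the endoplasmic reticulum that oxidise drugs, fatty acids and eicosanoids, and most are far more abundant in hepatocytes than elsewhere. Other P450s work in fixed steps of steroid, sterol, bile acid, retinoid and vitamin D metabolism. The oxidised products are then made soluble by transferases that attach glutathione, glucuronic acid or sulfate, while epoxide hydrolases open reactive epoxides with water. In liver many of these genes respond to the nuclear receptors CAR, PXR and PPARalpha and to the antioxidant factor NRF2, and several differ between male and female mice.

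Values are given as log2 ratios with the clone likely on top, a direction taken from how the titles name clone and pool. Arrays with the clone in Cy3 were taken to share that direction as deposited, which is not settled. Values above 9 in size, treated as missing, split by dye. Each group held 78 to 287 of them with the clone in Cy5, all positive, and 60 to 165 with it in Cy3, all negative. Medians of genes typical of hepatocytes lay below 0 on every liver array except the Cy3 array of Dll1 mouse 3, at 0.003. The correlations between orientations given below are mostly negative. What these values say about the direction was not tested. Gene names rest on reading each row's name 11 rows earlier. At that shift, 1 of 2001 tried, the rows of ribosomal protein genes had the lowest median SD between mice in both spleens (0.131 in wildtype and 0.163 in Dll1, against 0.257 and 0.411 with no shift), but it ranked only 1514 and 1331 in the livers. Rows that shared a gene also agreed best at that shift in both organs, though weakly (Spearman 0.073 over 4773 row pairs in liver and 0.128 over 2283 in spleen, across genes, which are not independent). The highest value at any other shift was 0.064 in liver and 0.066 in spleen. Neither check thus set the shift clearly apart in liver. A liver array lacked 59 to 230 values and a spleen array 248 to 2859, and array medians lay between -0.067 and 0.079. Since a ratio carries no level, the organ of a sample could not be checked from marker levels.

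In wildtype liver many members differed in sign between the dye orientations. Over the 49 members measured in all 4 wildtype livers, the mean with the clone in Cy5 and the mean with it in Cy3 correlated at -0.587, against -0.778 over all features. In wildtype spleen the members gave -0.58 over 40 genes. The Dll1 groups showed no such opposition among members, with 0.035 in liver and -0.032 in spleen, although all features gave -0.371 and -0.326. Cyp3a13, an intestinal and hepatic drug oxidase, is the clearest case: in the wildtype livers it lay at 0.42, 0.58, 0.34 and 0.40 with the clone in Cy5 and at -0.59, -0.20, -0.42 and -0.36 with it in Cy3. The orientations did not overlap, and the mean over both was 0.02 ± 0.12 (SD, n = 4). If the sign of the Cy3 arrays were changed, called turned here, the same gene would stand at 0.41 (SE 0.041, limma adjusted p 4.9e-05). The values below therefore give the reading as deposited first, and the other reading beside some members. Both readings use the same arrays. A mean keeps its sign when turned if the Cy5 mean is larger in size than the Cy3 mean. A kept sign is thus no second piece of evidence.

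**Figure D1:**
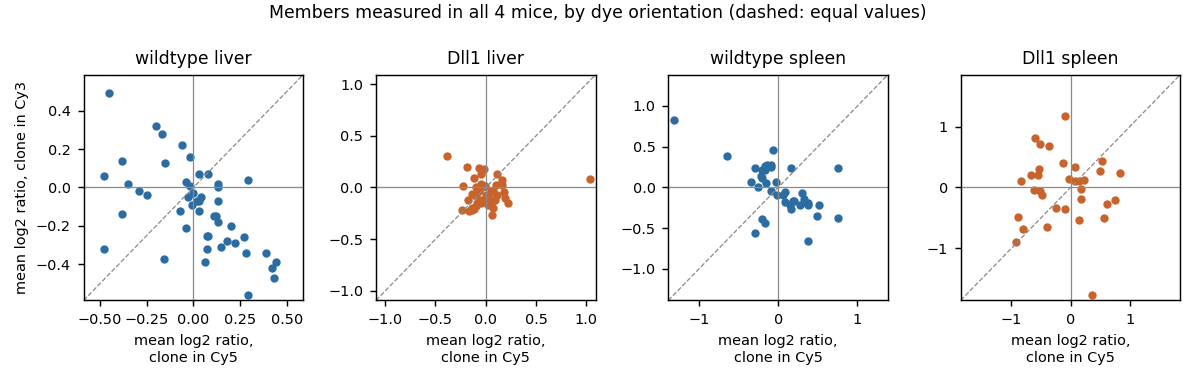
Each point is a member measured in all 4 mice of a group, by its mean log2 ratio on the arrays with the clone in Cy5 (x axis) and in Cy3 (y axis); the dashed line marks equal values. The wildtype groups fall along the opposite diagonal (correlations -0.587 in liver and -0.58 in spleen), while the Dll1 groups show no slope (0.035 and -0.032).

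As deposited, no member passed an adjusted p of 0.05 (limma, Benjamini-Hochberg over all features) in any of 10 comparisons with mouse means as the unit. Each organ was fitted on its own, except for the comparisons of liver with spleen, which used all 4 groups in 1 fit. When single arrays were fitted instead, with a dye term and mouse as a random block, 4 of 49 members passed in liver over both cohorts, where 1.26% of all features did. They were Cyp2a12 (limma adjusted p 0.0187), Cyp4f14 (0.0308), Cyp2c70 (0.0354) and Cyp2f2 (0.0407), all lower. The fit of single arrays enters the technical replicate arrays of a mouse as separate values, with 1 correlation within mice for all features. Its calls thus add no mice. With mouse means and the other groups in the fit, 8 of 46 members passed in Dll1 spleen, where 7.3% of all features did, and 2 of 45 in spleen over both cohorts, where 4.54% did. With mouse means and each organ fitted on its own, in wildtype liver 0 of 50 members passed, where 0.0826% of all features did, and in Dll1 liver 0 of 49, where 0% did. In wildtype spleen 0 of 47 and in Dll1 spleen 0 of 46 passed, again with 0% of all features. Over both cohorts together 0 of 49 passed in liver, where 0.172% of all features did, and 0 of 45 in spleen, where 0% did. At an unadjusted p under 0.05 the liver count over both cohorts was 13 of 49 members, all lower in clones, where 13.2% of all features passed and 7.49% did so on the lower side. In spleen it was 4 of 45, all lower, against 8.18% of all features and 4.02% on the lower side. Within single groups, 8 of 50 members passed unadjusted in wildtype liver, all lower, where 8.96% of all features passed and 4.31% on the lower side. In Dll1 liver 9 of 49 passed (background 9.38%), 8 of them lower (background 5.68%) and 1 higher (background 3.71%).

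Most members lay slightly below the pool in liver and evenly around it in spleen. Over both cohorts, 35 of 49 members (71.4%) had a liver mean below 0, compared with 47.4% of all features, and their median was -0.032 against 0.004. In wildtype liver it was 34 of 50 (68%, background 45.1%) and in Dll1 liver 32 of 49 (65.3%, background 52%). The shift was small beside the spread between mice, whose median SD over the members was 0.1 in wildtype and 0.121 in Dll1 liver. Wildtype and Dll1 spleen had 22 of 47 (background 46.8%) and 23 of 46 (background 49%) below 0. Over both spleens 23 of 45 members lay below 0 (51.1%, background 48.1%), with a median SD of 0.249 in wildtype and 0.447 in Dll1 mice. All measured mice were below the pool for 10 of 50 members in wildtype liver (background 9.02%) and 10 of 49 in Dll1 liver (background 9.94%), and all were above it for 4 in each (backgrounds 11.6% and 5.94%). In wildtype spleen the counts were 3 below (background 7.46%) and 2 above (background 9.81%), and in Dll1 spleen 8 below (background 8.69%) and 6 above (background 9.71%). Across all 8 mice no member was below the pool in every liver (background 1.76%), and 1, Ugt1a6a, in every spleen (background 1.19%). With the Cy3 arrays turned, the liver median of the members was 0.039, on the other side of 0.

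**Figure D2:**
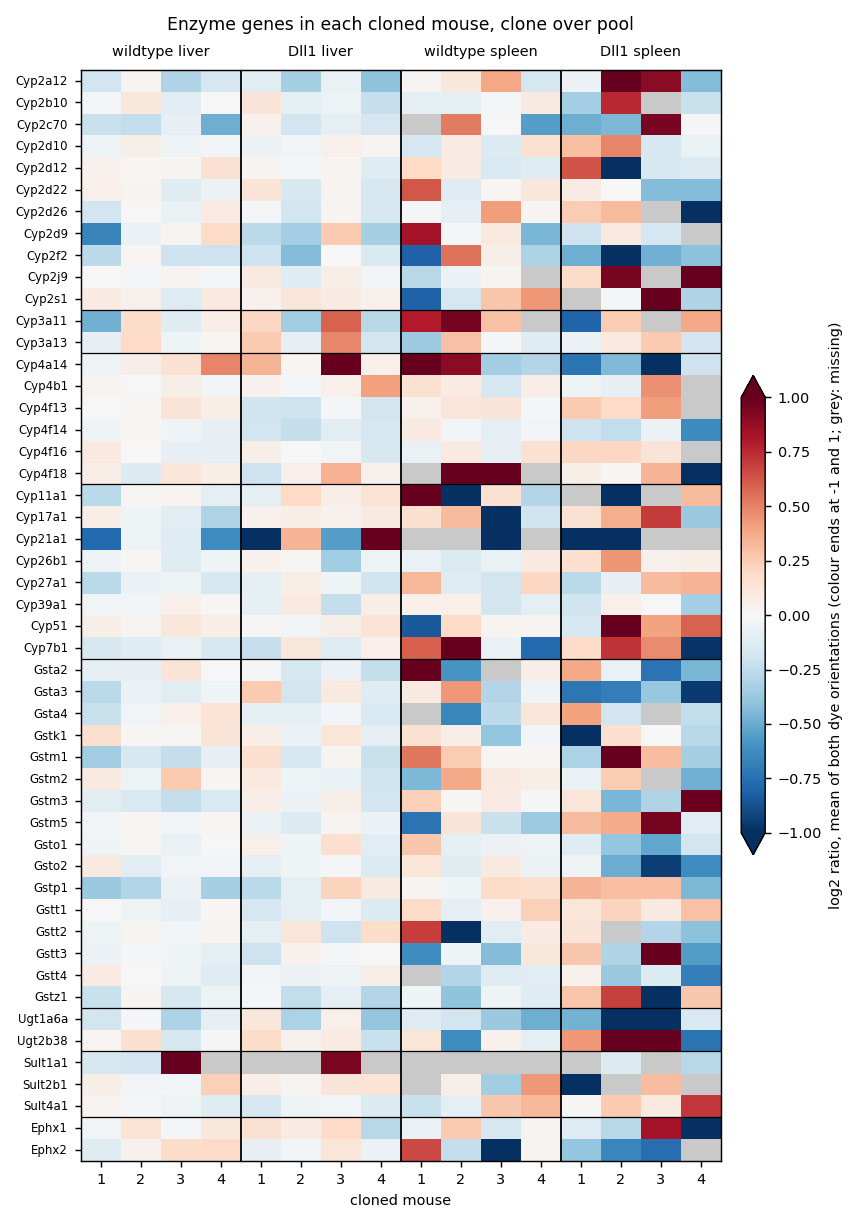
Log2 ratio of clone over pool for the 50 members (rows, by enzyme class) in each cloned mouse (columns, 4 mice in each of 4 groups), averaged over both dye orientations; the colours end at -1 and 1, and grey marks missing values. Liver columns are pale, with median SDs between mice of 0.1 and 0.121, while spleen columns vary more, at 0.249 and 0.447.

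The CYP2 family, the largest family of hepatic drug oxidases, held 3 of the 4 members with the smallest liver p-values. Cyp2a12, a hepatic steroid hydroxylase, lay at -0.19, 0.03, -0.30 and -0.17 in the 4 wildtype clones and at -0.11, -0.33, -0.07 and -0.40 in the 4 Dll1 clones. It was below the pool in 7 of 8 livers, and the cohorts overlapped. Its mean over both was -0.19 (SE 0.047, limma adjusted p 0.173, and 0.0187 in the fit of single arrays), and -0.07 (adjusted p 0.0597) with the Cy3 arrays turned. Cyp2c70, the murine enzyme that makes muricholic bile acids, gave -0.22, -0.25, -0.08 and -0.49 in wildtype and 0.04, -0.19, -0.09 and -0.17 in Dll1 livers. It too was lower in 7 of 8 mice, at -0.18 (SE 0.045, limma adjusted p 0.182, and 0.0354 in the fit of single arrays), and had the smallest p of all members in wildtype liver alone, at -0.26 (SE 0.064, limma adjusted p 0.339). Turned, it stood at -0.08 (adjusted p 0.139), the same side of 0.

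Cyp2f2, known for activating naphthalene in airway and liver, gave -0.26, 0.02, -0.21 and -0.21 in wildtype and -0.21, -0.43, 0.00 and -0.15 in Dll1 livers. Its mean was -0.18 (SE 0.048, limma adjusted p 0.195, and 0.0407 in the fit of single arrays), but with the Cy3 arrays turned it was 0.13 (adjusted p 0.00542), so its direction depends on the reading. Of the remaining 8 CYP2 genes, 7 had liver means between -0.08 and 0.07 in each cohort. The other, Cyp2d9, a male-biased testosterone hydroxylase, ranged from -0.66 to 0.19 in wildtype and from -0.34 to 0.26 in Dll1 livers, and its Dll1 mean was -0.17 ± 0.29 (SD, n = 4). The other Cyp2d genes (Cyp2d10, Cyp2d12, Cyp2d22 and Cyp2d26) are close relatives in sequence, and how well their probes tell them apart was not tested.

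The promoter windows of these 3 CYP2 genes are shown because the genes lay below the pool together. RefSeq on GRCm38.p6 gave a window of 300 bases, most of them before the start, for 39 of the 50 members, 48 windows in all. The windows shown are chr7:27028840-27029139 on the plus strand for Cyp2a12, chr19:40187237-40187536 on the minus strand for Cyp2c70 and chr7:27119705-27120004 on the plus strand for Cyp2f2, each written 5′ to 3′ along its gene. Capitals mark a TATA box in Cyp2a12 and the letters of an HNF4 core in Cyp2c70, and none of the 5 motifs searched stood in Cyp2f2.
Cyp2a12: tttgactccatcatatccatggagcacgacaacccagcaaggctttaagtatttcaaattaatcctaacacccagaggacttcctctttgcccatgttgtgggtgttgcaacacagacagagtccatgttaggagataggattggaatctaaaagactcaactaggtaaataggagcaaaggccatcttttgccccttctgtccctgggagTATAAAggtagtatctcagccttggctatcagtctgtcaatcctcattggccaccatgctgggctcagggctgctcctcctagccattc
Cyp2c70: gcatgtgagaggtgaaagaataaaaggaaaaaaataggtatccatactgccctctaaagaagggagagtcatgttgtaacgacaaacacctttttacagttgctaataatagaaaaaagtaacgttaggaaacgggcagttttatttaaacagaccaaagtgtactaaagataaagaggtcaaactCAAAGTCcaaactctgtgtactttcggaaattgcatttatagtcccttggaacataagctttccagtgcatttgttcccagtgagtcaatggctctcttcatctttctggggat
Cyp2f2: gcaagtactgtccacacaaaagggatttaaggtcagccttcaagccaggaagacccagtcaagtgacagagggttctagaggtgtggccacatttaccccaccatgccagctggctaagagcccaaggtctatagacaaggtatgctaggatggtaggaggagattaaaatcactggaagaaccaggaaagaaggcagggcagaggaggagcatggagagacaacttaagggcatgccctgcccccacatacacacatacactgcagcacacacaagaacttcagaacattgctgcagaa

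The motifs searched were TATAAA on the gene's strand and, on both strands, GTTAAT (HNF1 core), CAAAGTC (HNF4 core), GCGTG (core of the xenobiotic response element) and TGACNNNGC (core of the antioxidant response element). TATAAA stood in 12.5% of the members' 48 windows and in 8.32% of all 32851 windows. The shares for GTTAAT were 10.4% and 7.1%, and those for CAAAGTC 10.4% and 4.44%. GCGTG stood in 25.0% of member windows against 32.4% of all, and TGACNNNGC in 8.33% against 12.4%. These are matches of letters, with no test and no evidence of binding.

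As deposited, the CYP3 genes differed more between individual Dll1 clones than between clones and pools. Cyp3a11, the main PXR-responsive drug oxidase of mouse liver, lay at 0.21, -0.35, 0.59 and -0.28 in Dll1 mice 1 to 4, and Cyp3a13 at 0.26, -0.08, 0.48 and -0.18. For both genes mice 1 and 3 were above the pool and mice 2 and 4 below it. The means of 0.04 ± 0.44 and 0.12 ± 0.30 (SD, n = 4) lay well within that spread. In wildtype livers Cyp3a11 gave -0.48, 0.18, -0.12 and 0.07 (SD 0.29), and Cyp3a13 -0.08, 0.19, -0.04 and 0.02 (SD 0.12). Turned, the wildtype means were 0.17 (limma adjusted p 0.0186) and 0.41 (limma adjusted p 4.9e-05), where 54.8% of all features passed. The turned genotype differences in liver were -0.25 (limma adjusted p 0.0183) and -0.37 (limma adjusted p 0.00129), where 41.6% passed. In Dll1 liver 0 of 2 passed turned.

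Among the CYP4 genes, which oxidise fatty acids and eicosanoids, Cyp4f14 was the most even. This leukotriene B4 hydroxylase gave -0.19, -0.24, -0.11 and -0.17 in the Dll1 livers, all below the wildtype values of -0.04, 0.02, -0.04 and -0.08. The Dll1 mean of -0.18 (SE 0.038, limma adjusted p 0.355) had the smallest p of any member in that group, and the mean over both cohorts was -0.11 (limma adjusted p 0.176, and 0.0308 in the fit of single arrays). Turned, the Dll1 mean was 0.04 (adjusted p 0.615). Its neighbour in the family, Cyp4f13, gave -0.20, -0.21, -0.01 and -0.18 in Dll1 and 0.00, 0.02, 0.13 and 0.06 in wildtype livers. Cyp4a14, a PPARalpha target that hydroxylates fatty acids, was above the pool in 4 of 4 Dll1 livers at 0.34, 0.02, 1.82 and 0.05. The mean of 0.56 ± 0.85 (SD, n = 4) rests on mouse 3, and there on 1 array, which read 3.65 with the clone in Cy5 against -0.01 with it in Cy3.

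Of the 8 P450s with fixed metabolic steps, 7 had a liver mean below 0 over both cohorts, where 47.4% of all features did. Their medians by mouse were -0.109, -0.037, -0.062 and -0.122 in wildtype livers. In Dll1 livers they were -0.096, 0.085, -0.082 and 0.079, on both sides of the pool. Cyp27a1, the mitochondrial sterol 27-hydroxylase of the acidic bile acid pathway, gave -0.27, -0.06, -0.05 and -0.16 in wildtype and -0.09, 0.06, -0.04 and -0.20 in Dll1 livers. Cyp7b1, the oxysterol 7alpha-hydroxylase of the same pathway, gave -0.16, -0.12, -0.07 and -0.16 in wildtype and -0.23, 0.11, -0.13 and 0.05 in Dll1 livers. In the wildtype clones both were below the pool in 4 of 4 mice, at -0.14 (SE 0.053, limma adjusted p 0.496) and -0.13 (SE 0.056, limma adjusted p 0.537). With the Cy3 arrays turned they were above it, at 0.43 (adjusted p 0.000143) and 0.19 (adjusted p 0.00706). Cyp39a1, another oxysterol hydroxylase, gave -0.03, -0.03, 0.05 and 0.01 in wildtype and -0.10, 0.10, -0.24 and 0.07 in Dll1 livers. Cyp51, the lanosterol demethylase of cholesterol synthesis, gave 0.06, 0.03, 0.11 and 0.07 in wildtype livers, 4 of 4 above the pool.

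The steroidogenic genes of adrenal and gonad differed widely in how far their values spread between mice. Cyp21a1, the adrenal 21-hydroxylase, had the widest spread among liver members measured in all 4 Dll1 mice, at -1.58, 0.34, -0.55 and 1.33 (SD 1.24). The value of mouse 1 came from arrays reading 0.24 and -3.39. Cyp11a1, the side-chain cleavage enzyme, gave -0.27, 0.01, 0.03 and -0.09 in wildtype and -0.10, 0.20, 0.07 and 0.14 in Dll1 livers, overlapping. Cyp17a1, the 17alpha-hydroxylase, gave 0.07, -0.04, -0.11 and -0.30 against 0.04, 0.07, 0.04 and 0.09, a narrow range in the Dll1 mice. Cyp26b1, a retinoic acid hydroxylase, had means of -0.05 and -0.09.

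Of the 16 glutathione S-transferases 14 had a liver mean below 0 over both cohorts, with a median of -0.05, where 47.4% of all features lay below 0. Gstp1, the pi-class enzyme that is higher in male than female mouse liver, gave -0.37, -0.29, -0.06 and -0.33 in wildtype and -0.27, -0.10, 0.22 and 0.09 in Dll1 livers. All 4 wildtype clones were below the pool, at -0.26 (SE 0.078, limma adjusted p 0.399), while the Dll1 clones straddled it. The mu-class genes Gstm1 and Gstm3 behaved alike in wildtype mice, at -0.35, -0.16, -0.24 and -0.08 for Gstm1 and at -0.11, -0.15, -0.24 and -0.15 for Gstm3. Neither passed the adjusted test (0.431 for Gstm1 and 0.399 for Gstm3, limma). With the Cy3 arrays turned both were also below the pool, at -0.27 (limma adjusted p 0.00614) and -0.18 (limma adjusted p 0.0525). That follows from Cy5 means larger in size than the Cy3 means and is no second piece of evidence. The mu-class genes are close relatives, and how well their probes tell them apart was not tested. Gstz1, which also breaks down tyrosine as maleylacetoacetate isomerase, gave -0.22, 0.03, -0.16 and -0.05 in wildtype and -0.01, -0.25, -0.10 and -0.29 in Dll1 livers.

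Gstz1 was lower in 7 of 8 mice, at -0.13 (SE 0.040, limma adjusted p 0.25), but its 2 rows differed, at -0.19 and 0.00 in wildtype. Gstt1, a theta-class enzyme, was below the pool in 4 of 4 Dll1 livers at -0.17, -0.09, -0.03 and -0.14, and Gsta2, an NRF2 target, at -0.02, -0.17, -0.06 and -0.24. The other 10 transferases (Gsta3, Gsta4, Gstk1, Gstm2, Gstm5, Gsto1, Gsto2, Gstt2, Gstt3 and Gstt4) had liver means between -0.12 and 0.08 in each cohort. Gsto1, which has 3 rows on the array, stood at -0.02 ± 0.04 in wildtype and 0.02 ± 0.12 in Dll1 livers (SD, n = 4 each).

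**Figure D3:**
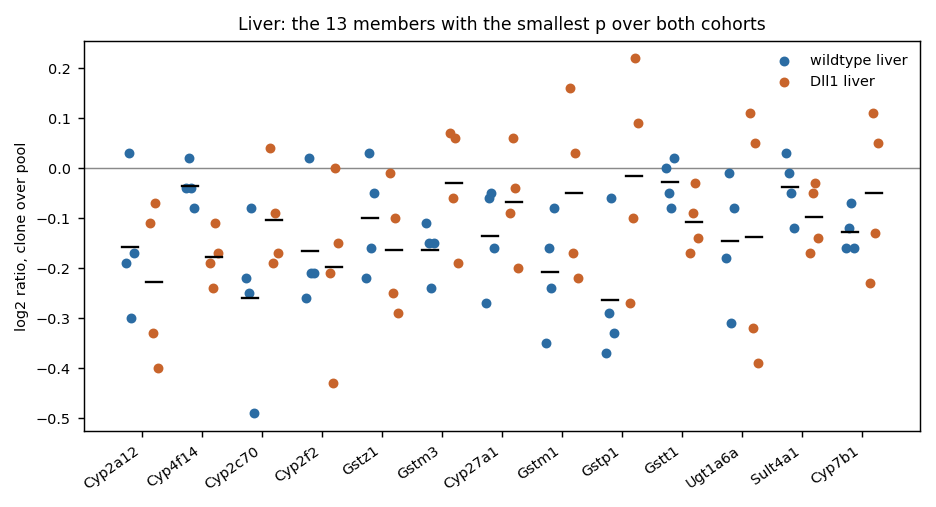
Log2 ratio of clone over pool in each liver (points; 4 wildtype and 4 Dll1 clones per gene, both dye orientations averaged) for the 13 members with the smallest p over both cohorts; black bars are cohort means and the grey line marks the pool. Cyp2a12 lies below 0 in 7 of 8 mice, and for Cyp4f14 every Dll1 mouse is below every wildtype mouse.

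The remaining conjugating enzymes were few. Ugt1a6a, a glucuronosyltransferase for planar phenols, gave -0.18, -0.01, -0.31 and -0.08 in wildtype and 0.11, -0.32, 0.05 and -0.39 in Dll1 livers. Ugt2b38, of the family that conjugates steroids and bile acids, had liver means of 0.00 and 0.02. Sult4a1, a brain-type sulfotransferase, was below the pool in 4 of 4 Dll1 livers at -0.17, -0.05, -0.03 and -0.14, while Sult2b1, a cholesterol sulfotransferase, was above it in 4 of 4 at 0.07, 0.03, 0.13 and 0.14. Sult1a1, the phenol sulfotransferase, was measured in 3 wildtype livers at -0.16, -0.19 and 2.44, and in 1 Dll1 liver at 0.94. The high wildtype value appeared in both orientations, at 2.59 and 2.29. Ephx1, the microsomal epoxide hydrolase, had means of 0.05 and 0.03, and Ephx2, the soluble enzyme that hydrolyses epoxy fatty acids, of 0.07 and -0.01.

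Among the Dll1 livers several genes of different classes were lower in mice 2 and 4 than in mouse 1. A chosen, incomplete list of 13 targets of CAR, PXR, PPARalpha or NRF2 had 6 measured genes (Cyp2b10, Cyp3a11, Cyp4a14, Gsta2, Gstm1 and Ephx1). Their medians were 0.158, -0.129, 0.109 and -0.239 in mice 1 to 4. On single arrays the medians were 0.092 with the clone in Cy5 and 0.16 with it in Cy3 for mouse 1, -0.086 and -0.162 for mouse 2, 0.182 and -0.006 for mouse 3, and -0.15 and -0.315 for mouse 4. The value of mouse 3 thus rests on its Cy5 array, while the other mice had the same sign on both. Cyp2b10, the classical CAR target, gave 0.13, -0.09, -0.05 and -0.23, and Gstm1 0.16, -0.17, 0.03 and -0.22. Ugt1a6a followed the same order of high and low mice. Its 2 arrays per mouse read 0.10 and 0.11, -0.28 and -0.35, 0.07 and 0.02, and -0.30 and -0.49. The 14 measured hepatocyte markers had medians of -0.068, -0.195, -0.005 and -0.145 in these mice, lower in mice 2 and 4 as well, and their part in the pattern was not tested. The order was not particular to the targets. All CYP2 genes had medians of 0.027, -0.156, 0.032 and -0.157, and all 50 members -0.014, -0.054, 0.032 and -0.142. The 8 P450s with fixed metabolic steps went the other way, at -0.096, 0.085, -0.082 and 0.079. In wildtype livers the medians of the 6 targets were -0.07, 0.089, -0.065 and 0.038, and those of the hepatocyte markers -0.235, -0.084, -0.305 and -0.151. These genes were singled out after their values were seen, so no test is given.

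**Figure D4:**
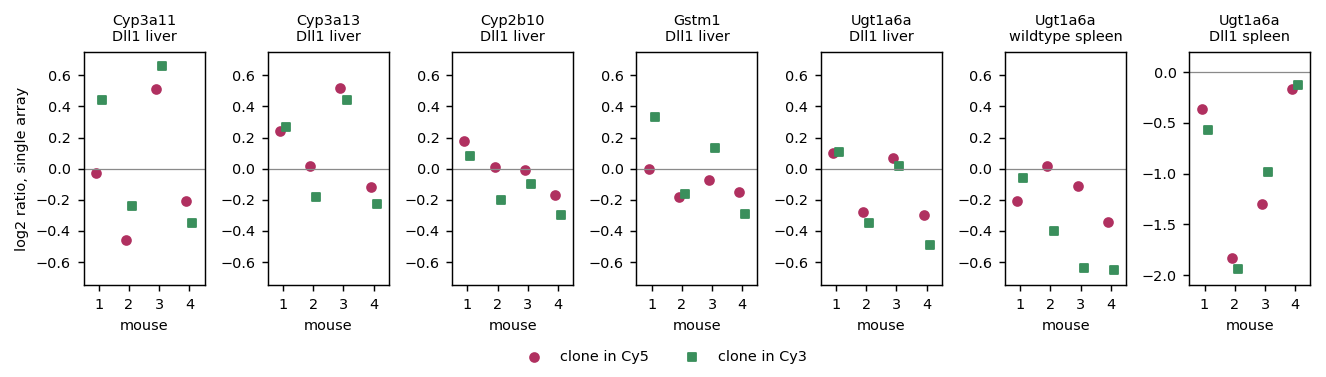
Log2 ratio on single arrays for members whose values differed between mice: circles are arrays with the clone in Cy5 and squares with it in Cy3, by cloned mouse; the last panel has a wider scale. In Dll1 liver both arrays of mice 2 and 4 read below 0 for Cyp3a11 and Ugt1a6a, and in Dll1 spleen both arrays of mouse 2 put Ugt1a6a near -1.9.

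In spleen the leading member was Ugt1a6a, lower in 8 of 8 clones. It gave -0.13, -0.19, -0.37 and -0.49 in wildtype and -0.47, -1.88, -1.14 and -0.15 in Dll1 spleens, and the cohorts overlapped. The mean over both was -0.60 (SE 0.176, limma adjusted p 0.458). Its arrays agreed between orientations in the Dll1 mice, at -0.36 and -0.57, -1.83 and -1.94, -1.30 and -0.98, and -0.17 and -0.13, so that turning the Cy3 arrays brought the Dll1 mean to -0.01. The haemoglobin gene Hba-a1, picked after its values were seen, had the same order of mice, at -0.03, -0.31, -0.44 and -0.71 in wildtype and -0.66, -2.22, -1.13 and -0.23 in Dll1 spleens. The median of the 8 measured erythroid markers was -0.267, -0.341, -0.45 and -0.817 in the former and -0.184, -1.401, -0.875 and -0.077 in the latter. Of these 8 markers, 6 had a spleen mean below 0 over both cohorts, where 48.1% of all features did. None passed the adjusted test, and 6 passed at an unadjusted p under 0.05, all lower, where 8.18% of all features passed and 4.02% on the lower side. The 7 lymphoid markers tested were all above 0 in the same spleens, with a median of 0.448, and 6 passed unadjusted, all higher, but none adjusted. H2-Eb1, an MHC class II gene of B cells and other antigen-presenting cells, stood at 0.90 (SE 0.131, limma adjusted p 0.262) and Ms4a1, which encodes CD20 of B cells, at 0.57 (SE 0.075, limma adjusted p 0.262), each higher in 8 of 8 mice. By mouse the lymphoid median was 0.344, 0.493, 0.547 and 0.449 in wildtype and 0.468, 0.404, 0.407 and 0.102 in Dll1 spleens. The part of either marker list in the members' spleen values was not tested, and in bulk tissue fewer cells of a type and less RNA per cell cannot be told apart.

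In Dll1 spleen 7 of 46 members passed an unadjusted p of 0.05, where 10.3% of all features did, with 6 of them lower (background 5.18%) and 1 higher (background 5.11%). Gsta3, an alpha-class transferase that also isomerises steroids, gave -0.72, -0.69, -0.38 and -0.96, all below the wildtype values of 0.09, 0.43, -0.29 and -0.04. Its Dll1 mean was -0.69 (SE 0.149, limma adjusted p 0.398), and -0.21 (adjusted p 0.625) turned. Gsto2, an omega-class enzyme that reduces dehydroascorbate, gave -0.05, -0.50, -0.94 and -0.63, for a mean of -0.53 (SE 0.151, limma adjusted p 0.4). Cyp2f2 gave -0.49, -1.45, -0.48 and -0.41, but its Cy5 arrays of mice 3 and 4 read 1.08 and 1.18 against -2.03 and -2.00 with the clone in Cy3. Cyp2j9, an oxidase of arachidonic acid, was above the pool in the 3 Dll1 mice measured, at 0.18, 0.95 and 1.07.

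In wildtype spleen 1 of 47 members passed an unadjusted p of 0.05, where 3.67% of all features did and 2.05% on the higher side. It was Cyp3a11, at 0.79, 0.96 and 0.29 in the 3 mice measured (mean 0.68, SE 0.264, limma adjusted p 1). Its orientations disagreed, since mouse 1 read -0.09 and 1.67 and mouse 3 -0.41 and 0.99. Other members typical of liver or adrenal also spread widely in spleen. Cyp7b1 gave 0.60, 1.06, -0.07 and -0.78 in wildtype spleen, Gsta2 2.21, -0.59 and 0.06 in 3 mice, and Cyp11a1 1.90, -1.37, 0.15 and -0.29. Steadier in spleen were Gstt1, above the pool in 4 of 4 Dll1 mice at 0.12, 0.22, 0.09 and 0.29, and Cyp4f16, at 0.21, 0.21 and 0.13 in the 3 Dll1 mice measured.

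**Figure D5:**
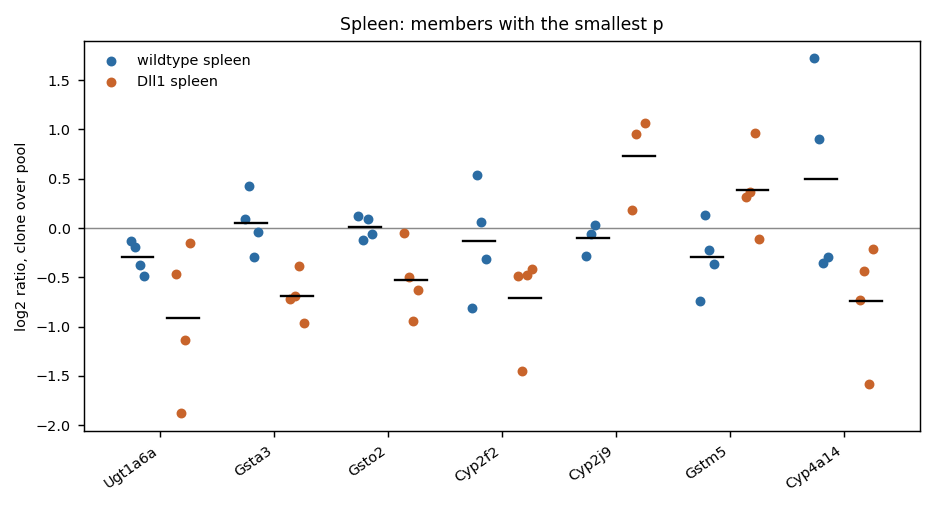
Log2 ratio of clone over pool in each spleen (points; both dye orientations averaged) for the members with the smallest p over both cohorts or between them; black bars are cohort means and the grey line marks the pool. Ugt1a6a lies below 0 in all 8 mice, and Gsta3 in every Dll1 mouse lies below every wildtype mouse.

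The difference between genotypes, Dll1 shift minus wildtype shift, was tested for each member. In liver 0 of 49 passed the adjusted test, where 0% of all features did, and 3 of 49 passed unadjusted, where 4.87% did. Those were Cyp4f13 at -0.20 (SE 0.063), Cyp4f14 at -0.14 (SE 0.054) and Gstp1 at 0.25 (SE 0.11), all with a limma adjusted p of 0.934. In spleen 0 of 45 passed, where 0% of all features did, and 5 of 45 unadjusted, where 4.67% did. Gsta3 differed by -0.74 (SE 0.21), Cyp2j9 by 0.84 (SE 0.289), Gsto2 by -0.54 (SE 0.212), Gstm5 by 0.68 (SE 0.273) and Cyp4a14 by -1.23 (SE 0.498), all with a limma adjusted p of 0.871. Cyp4a14 gave 1.72, 0.90, -0.35 and -0.29 in wildtype and -0.73, -0.44, -1.58 and -0.21 in Dll1 spleens, which overlapped.

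Liver and spleen shifts of the same mice were also compared, with all 4 groups in 1 fit. That fit shares 1 spread between the organs, whose median SDs over all features differ. They were 0.0867 and 0.109 in wildtype and Dll1 liver, against 0.266 and 0.417 in spleen. In wildtype mice 0 of 47 members passed, where 0% of all features did, and 1 passed unadjusted, where 6.16% did. In Dll1 mice 0 of 46 passed, where 0.0883% of all features did, and 13 passed unadjusted, where 14.2% did. The leading ones were Gsta3, higher in liver by 0.70 (SE 0.162, limma adjusted p 0.115), Cyp4f13 at -0.44 (SE 0.106, limma adjusted p 0.12) and Cyp2j9 at -0.74 (SE 0.181, limma adjusted p 0.133). For Cyp4f13 the 4 liver values were below 0 and the 3 spleen values, 0.26, 0.19 and 0.42, above it. With the mouse as a replicate block the calls were 0 in both cohorts.

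The rest of the detoxification pathway was followed through 5 lists. The share of all features with a liver mean below 0 over both cohorts, 47.4%, is the background for each count below. Of 14 measured receptors and liver transcription factors, 10 had a liver mean below 0 over both cohorts and 0 passed the adjusted test. Nr0b2, the bile acid-induced repressor SHP, stood at -0.11 (SE 0.034, limma adjusted p 0.247) and Cebpa at -0.16 (SE 0.05, limma adjusted p 0.253). Of 9 electron donors and haem enzymes 5 were below 0 and 0 passed, with Fdx1, the ferredoxin that feeds mitochondrial P450s, at -0.12 (SE 0.043, limma adjusted p 0.306) and Cyb5a, cytochrome b5, at -0.11 (SE 0.041, limma adjusted p 0.317). Among 17 other oxidising and hydrolysing enzymes 11 were below 0 and 0 passed. Adh1, the liver alcohol dehydrogenase, was below the pool in 8 of 8 livers at -0.28 (SE 0.057, limma adjusted p 0.118), and the carboxylesterase Ces1c in 8 of 8 at -0.19 (SE 0.056, limma adjusted p 0.246).

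Of 12 cofactor and other transferase genes 6 were below 0 and 0 passed, with Nnmt at -0.16 (SE 0.057, limma adjusted p 0.308) and Papss1 at -0.10 (SE 0.044, limma adjusted p 0.358). Of 6 transporters 4 were below 0 and 0 passed, with Slc22a7 at -0.11 (SE 0.046, limma adjusted p 0.356). The 14 hepatocyte markers, none of them members, were all below 0 in liver (background 47.4%), with a median of -0.14. Of these 1 passed, the fibrinogen gene Fgb at -0.31 (SE 0.04, limma adjusted p 0.0183). The members' median of -0.032 lay between theirs and the 0.004 of all features. In spleen 0 genes of these 5 lists passed. The smallest p there belonged to Mgst3, a microsomal glutathione transferase, below the pool in 8 of 8 mice at -0.58 (SE 0.148, limma adjusted p 0.454), and to Alad of haem synthesis, also in 8 of 8, at -0.29 (SE 0.076, limma adjusted p 0.454).

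With the Cy3 arrays turned, many members passed in liver, at rates near those of all features. In wildtype liver 25 of 50 members passed (17 higher, 8 lower), where 54.8% of all features did, and in Dll1 liver 2 of 49, where 5.07% did. Over both livers 20 of 49 passed, where 42.6% did, and the genotype difference in liver gave 21 of 49, where 41.6% did. In wildtype spleen 0 of 47 passed (background 1.1%) and in Dll1 spleen 0 of 46 (background 4.62%). Liver minus spleen gave 3 of 47 in wildtype (background 14.2%) and 3 of 46 in Dll1 mice (background 4.45%). The 2 that passed in Dll1 liver, clone against pool, were Ephx1 at 0.18 (SE 0.038, limma adjusted p 0.0263) and Gstt3 at -0.34 (SE 0.065, limma adjusted p 0.0175). In spleen over both cohorts 5 of 45 passed, where 13.2% of all features did, namely Cyp3a13, Cyp4f16, Gstt1 and Sult4a1, higher, and Gstt3, lower. Cyp4b1, a lung and kidney P450, shows how far the readings part in wildtype liver: 0.02 (adjusted p 0.974) as deposited and -0.47 (adjusted p 0.000443) turned. Of the 8 members that passed lower in wildtype liver when turned, Cyp2a12, Gsta2, Gsta3 and Gstm1 were also below the pool as deposited. Their deposited means were -0.16, -0.01, -0.12 and -0.21, and none of them passed in that reading. Both readings use the same arrays, so the kept sign is no second piece of evidence.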

How the data were processed

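The deposited series table holds 1 log2 ratio per row and array, made by the authors. How they normalized and filtered it is not given in the sources used here. Per the labels' protocols, 20 µg of total RNA was labelled indirectly with Cy3 or Cy5. The members and lists were chosen with earlier results of these data known. Values above 9 in size were set to missing. Each mouse's 2 arrays were averaged where both had a value, and rows of a gene were averaged. Genes with at least 3 mice per group were fitted by organ with limma 3.58.1 in R 4.3.3 (lmFit, eBayes), 1 mean per cohort, with Benjamini-Hochberg adjustment over all features, unnamed rows included. For liver minus spleen all 4 groups were in 1 fit. All 12771 platform probes with a gene had 1 symbol, matched through their gene number; 12760 rows were named after the shift and 8034 were not.

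Named members were those past the threshold, those with the smallest p per class and group or per genotype contrast, those with the widest spread, and a fixed set; others are said to have been chosen after their values were seen. The labels give the same mouse identifiers in both organs, which pairs liver and spleen. Same-mouse deviations correlated at 0.012 to 0.107 in wildtype and -0.004 to 0.018 in Dll1 mice over all features, against -0.115 to 0.065 and -0.033 to 0.034 between different mice. Over the members alone the same-mouse values were -0.449 to -0.102 and -0.267 to 0.025. A mouse's 2 arrays are technical replicates, per the series' design text. On simulated data for clone against pool, wildtype liver (16709 features), 89% of genes changed by 0.5 and 96% of those changed by 1 were recovered. In wildtype spleen (11879 features) it was 5% and 49%. The simulation drew independent normal noise with each feature's SD, without a dye effect or the pool's own spread. Changes below 0.5, the size of most liver means given here, were not simulated, so recovery at those sizes is not known. Alternatives tried were the turned Cy3 arrays, other scaling, centring, constants, rows, groups and units of fit, names without the shift, and each mouse left out.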

Additional observations from a re-analysis of the deposited data

Results flagged for a closer look

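Among 191 sets of 4 mice, 10 (5.24%) had 1 mouse far from the other 3 by Dixon's criterion, about the rate of 1 in 20 that chance gives. In wildtype liver these were Cyp2d10 at 0.06 in mouse 2 (others -0.05 to -0.03), Cyp2d12 at 0.15 in mouse 4 (others 0.02 to 0.04) and the CYP4 median at 0.094 in mouse 3 (others 0.008 to 0.018). In Dll1 liver they were Cyp2d9 at 0.26 in mouse 3 (others -0.34 to -0.26), Cyp4f13 at -0.01 in mouse 3 (others -0.21 to -0.18) and Cyp4b1 at 0.41 in mouse 4 (others -0.02 to 0.05). In wildtype spleen mouse 1 stood apart for Cyp51 at -0.84 (others 0.03 to 0.19) and for Gsto1 at 0.27 (others -0.10 to -0.05). In Dll1 spleen it was Cyp2f2 at -1.45 in mouse 2 (others -0.49 to -0.41) and Gstp1 at -0.45 in mouse 4 (others 0.30 to 0.34).

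For 5 genes, over 3 pairs of groups, every mouse of one group lay above the pool and every mouse of the other below it. Between wildtype and Dll1 spleen, also examined, 0 of 29 members split, where 0.69% of all features did. Cyp4f13 was 0.2 higher in wildtype than in Dll1 liver (the limma test of the difference gave an adjusted p of 0.934). It was 1 of 49 members, where 0.79% of all features showed such a split. Some of its values lay near 0, such as -0.01 in Dll1 mouse 3. Gstm1 was lower in wildtype liver than in wildtype spleen by a difference of -0.41 (limma adjusted p 0.936), 1 of 40 members where 2.12% of features did. Between Dll1 liver and Dll1 spleen 3 of 33 members split, where 1.67% of features did: Cyp4a14 by 1.3 (limma adjusted p 0.242), Gstt1 by -0.29 (limma adjusted p 0.234) and Sult4a1 by -0.37 (limma adjusted p 0.296). The Cyp4a14 difference rests in part on 1 liver array of mouse 3 that read 3.65.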

How the results depend on the processing

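With mouse means no member passed as deposited, nor under 9 of the 12 kinds of alternative, those that left out each mouse in turn included (counts from 0 to 0 in all 10 comparisons). With mouse as a replicate block, pairing liver and spleen, the count was 0 in both cohorts. With the Cy3 arrays turned the counts were 25 in wildtype liver, 2 in Dll1 liver, 20 in liver and 5 in spleen over both cohorts, 21 for the genotype difference in liver, and 3 and 3 for liver minus spleen in wildtype and Dll1 mice. All features then passed at 54.8%, 5.07%, 42.6%, 13.2%, 41.6%, 14.2% and 4.45%. Of 93 values of named members, 41 kept their sign under that reading. Those that passed the limma test on the other side of 0 were Cyp2f2 (0.22), Cyp3a11 (0.17), Cyp4f13 (-0.22), Cyp27a1 (0.43) and Cyp7b1 (0.19) in wildtype liver, Cyp2f2 (0.13) in liver over both cohorts, Cyp17a1 (-0.29) for the genotype difference in liver and Cyp27a1 (0.63) for liver minus spleen in wildtype mice. These follow from changing the sign of 1 array per mouse.

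With the other groups in the fit 8 members passed in Dll1 spleen, where 7.3% of features did (Cyp2f2, Cyp2j9, Cyp4f13, Cyp4f14, Gsta3, Gsto1, Gsto2 and Ugt1a6a), and 2 in spleen over both cohorts, where 4.54% did (Gsta3 and Ugt1a6a). That fit shares 1 spread between liver and spleen, whose median SDs differ (0.0867 and 0.109 against 0.266 and 0.417 over all features). Fitted as single arrays with a dye term and mouse as a random block, 4 members passed in liver over both cohorts, where 1.26% of features did: Cyp2a12 (adjusted p 0.0187), Cyp4f14 (0.0308), Cyp2c70 (0.0354) and Cyp2f2 (0.0407), with the same log2 values. These calls come from entering technical replicate arrays as separate values, with 1 correlation within mice for all features, and add no mice. Spot signal was not used here, and 4 mice per group limit the precision.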
